A study of Mus musculus with 4 samples.

Results

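The 10 genes described here carry sugars, short peptides and amino acids into and out of the intestinal epithelium: Slc5a1, Slc2a1, Slc2a2, Slc2a5, Slc15a1, Slc6a14, Slc6a19, Slc7a9, Slc3a1 and Slc3a2. They were chosen by name. All 10 were found among the 55203 genes of the tables, with 39 of the 141738 transcripts. Levels are in FPKM (fragments per kilobase of transcript, relative to the library's mapped fragments), summed over the transcripts of a gene, and being per length they can be compared between genes. RNA came from intestinal tissue of wild-type (WT) adult male C57BL/6NTac mice aged 8 to 12 weeks, which were specific-pathogen-free (SPF). The libraries were made to set beside MERFISH, an imaging method that counts transcripts in tissue sections. There were 4 of them: 2 labelled fresh frozen and 2 labelled as processed with RVC at 4 mM. RVC, ribonucleoside vanadyl complex, blocks ribonucleases. A rinse with RVC is described in the protocol of all 4 libraries, so how the fresh-frozen tissue was handled is known only from its label. Whether libraries came from separate mice is not stated, so p-values measure the spread between these libraries, which may be technical. Every library has a different batch label, and batch therefore cannot be told apart from group.

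The small intestine absorbs most dietary sugar and amino acid. At the apical membrane, SGLT1 (Slc5a1) takes up glucose and galactose with sodium, GLUT5 (Slc2a5) takes up fructose, PEPT1 (Slc15a1) takes up di- and tripeptides with protons, and B0AT1 (Slc6a19) takes up neutral amino acids with sodium. The heavy chain rBAT (Slc3a1) joins the light chain Slc7a9 in the apical transporter of cystine and basic amino acids, whose loss causes cystinuria. GLUT2 (Slc2a2) releases sugar across the basolateral membrane, GLUT1 (Slc2a1) supplies glucose to cells of many tissues, and 4F2hc (Slc3a2) is the heavy chain of several basolateral amino acid exchangers. ATB0,+ (Slc6a14), which takes up neutral and basic amino acids with sodium and chloride, is known as a transporter of the distal gut rather than the jejunum.

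Ileum is the tissue in the labels, but distal colon is the tissue in the protocol and in the design text. A list of 12 markers of distal colon epithelium summed to between 4608 and 6926 FPKM in the 4 libraries, with at least 11 of the 12 at 1 FPKM or more in each, led by the carbonic anhydrase gene Car4. Of 11 markers of ileal enterocytes, 4 reached 1 FPKM in every library, led by the brush border protease gene Mep1a. They included Fabp2 at 14.5 to 43.7 FPKM, Fabp6 at 2.70 to 3.96 FPKM and Slc10a2 at 2.33 to 3.07 FPKM. Apoa4 and Fgf15 were listed at 0 in all 4 libraries. All 9 epithelial markers exceeded 1 FPKM in each library, with Lgals4 highest. Of 6 pancreatic markers, 4 were listed at 0 in every library and none, Ins2 included, reached 1 FPKM. The files give no read totals. Coverage divided by FPKM, a measure of relative depth, placed the other libraries at 72.6% to 81.8% of fresh frozen 2.

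**Figure D1:**
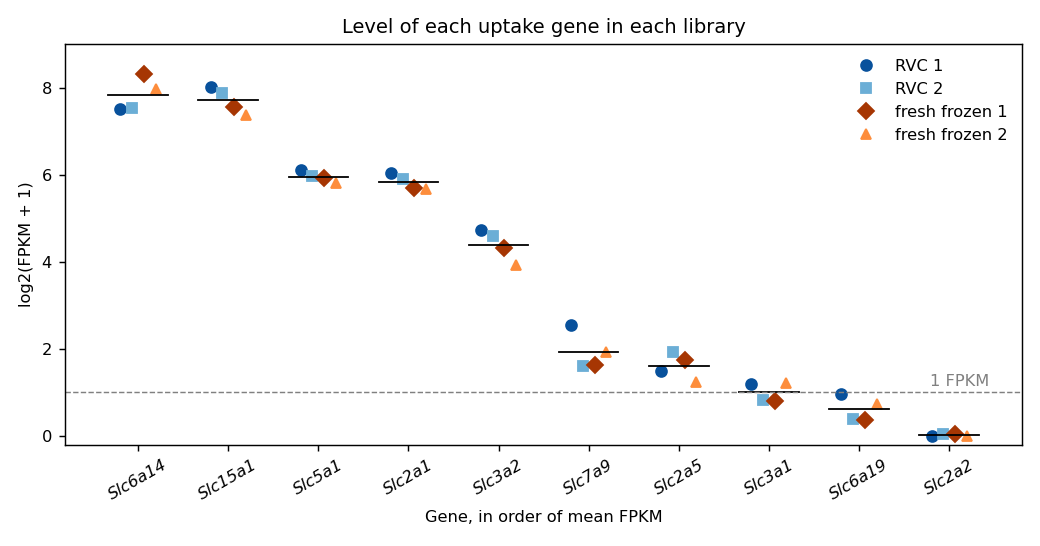
Level of each gene in each of the 4 libraries as log2(FPKM + 1), in order of mean FPKM, with the mean of the 4 as a bar and the level of 1 FPKM as a dashed line. The genes from Slc6a14 to Slc3a2 stand far above 1 FPKM in all libraries, and Slc3a1, Slc6a19 and Slc2a2 lie near or under it.

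The 10 genes fell into a strongly expressed part and a part at a much lower level. Slc6a14, Slc15a1, Slc5a1, Slc2a1 and Slc3a2 measured between 14.2 and 314 FPKM in every library, and the other 5 genes never exceeded 4.82 FPKM. Counting a gene as on at 1 FPKM or more, 8 of the 10 were on in RVC 1 and in fresh frozen 2, and 7 were on in RVC 2 and in fresh frozen 1. In the same libraries between 52.4% and 53.4% of 21553 protein-coding genes were on. The count differed between libraries through Slc3a1 alone, whose values straddled 1 FPKM. At a minimum of 5 FPKM the count was 5 of 10 in each library. Of the summed FPKM of the 10 genes, the leading 3 took 83.7% and 84.6% in RVC 1 and 2, and 88.2% and 87.0% in fresh frozen 1 and 2. In order of mean FPKM, neighbours whose ranges over the 4 libraries overlapped were Slc6a14 and Slc15a1, Slc5a1 and Slc2a1, Slc7a9 and Slc2a5, and Slc3a1 and Slc6a19. The other 5 steps in the order separated ranges that did not overlap.

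The sequence just before the start of transcription is shown for 3 strongly expressed genes and for Slc3a1, whose level lay near 1 FPKM. These 4 windows hold no coding or UTR bases of the annotation. Each is the 250 bases before the annotated start of the gene's most abundant transcript, read 5′ to 3′ on the gene's strand from the genome build of the tables, GRCm39. Capitals mark matches, on either strand, to short motifs: GTTAAT for HNF1, CAAAGTCCA for HNF4, TTTATG for CDX, AGATAA for GATA factors, TATAAA for the TATA box, ACGTG for the hypoxia response element and GGGCGG for the GC box. Matches may overlap one another. Of the window of Slc6a14, 195 bases lie in an exon of an lncRNA in GENCODE. The windows are chrX:21580885-21581134 (plus strand) for Slc6a14, chr5:33261313-33261562 (plus strand) for Slc5a1, chr4:118965658-118965907 (plus strand) for Slc2a1 and chr17:85335554-85335803 (plus strand) for Slc3a1.
Slc6a14: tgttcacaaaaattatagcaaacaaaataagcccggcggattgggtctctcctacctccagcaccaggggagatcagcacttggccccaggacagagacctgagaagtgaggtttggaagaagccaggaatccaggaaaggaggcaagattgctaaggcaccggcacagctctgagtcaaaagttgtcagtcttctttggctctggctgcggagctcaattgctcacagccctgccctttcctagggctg
Slc5a1: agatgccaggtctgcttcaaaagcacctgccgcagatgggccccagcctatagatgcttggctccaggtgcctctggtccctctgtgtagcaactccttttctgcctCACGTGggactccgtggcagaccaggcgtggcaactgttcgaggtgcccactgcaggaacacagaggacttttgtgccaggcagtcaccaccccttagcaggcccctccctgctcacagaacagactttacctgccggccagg
Slc2a1: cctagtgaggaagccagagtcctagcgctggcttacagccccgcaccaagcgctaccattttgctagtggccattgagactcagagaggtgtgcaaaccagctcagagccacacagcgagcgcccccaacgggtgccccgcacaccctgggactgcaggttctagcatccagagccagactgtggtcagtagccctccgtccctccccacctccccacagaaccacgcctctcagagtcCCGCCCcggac
Slc3a1: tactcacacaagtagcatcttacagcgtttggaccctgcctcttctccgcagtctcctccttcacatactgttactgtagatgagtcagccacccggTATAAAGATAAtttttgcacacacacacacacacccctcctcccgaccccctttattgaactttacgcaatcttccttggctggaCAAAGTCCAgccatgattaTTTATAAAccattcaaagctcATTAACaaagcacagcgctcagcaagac

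The window of Slc3a1 held 6 matches, more than any other of the 4. They comprised 1 HNF4 match whose first base lies 68 bases before the start, 1 HNF1 match, 1 GATA match and 3 TATA box matches. Slc5a1 held the hypoxia element on both strands at 1 palindromic site, Slc2a1 held 1 GC box and Slc6a14 held none of the 7 motifs. Among the 250 bases before the start in 32851 RefSeq promoter windows (build GRCm38.p6), CAAAGTCCA was present in 0.384%, GTTAAT in 6.43%, TTTATG in 10.8%, AGATAA in 9.99%, TATAAA in 12.4%, ACGTG in 16.6% and GGGCGG in 32.7%. A match is a run of letters and was not tested as a binding site. GC content was 52.8% for Slc6a14, 60.0% for Slc5a1, 63.2% for Slc2a1 and 46.0% for Slc3a1.

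Among the sugar carriers, Slc5a1 and Slc2a1 were high, Slc2a5 lay just above 1 FPKM and Slc2a2 lay at or near 0. Slc5a1 (ENSMUSG00000011034, chromosome 5, 33261563 to 33320214, plus strand, GRCm39) measured 68.1 and 61.5 FPKM in RVC 1 and 2, and 59.7 and 54.9 FPKM in fresh frozen 1 and 2, a mean of 61.1 ± 5.46 (SD, n = 4). It varied least of the 10 genes, with a coefficient of variation of 8.94%, and lay within the top 3.88% to 4.51% of protein-coding genes. The confidence bounds in the tables, for its single transcript of 4104 nt, were 53.6 and 56.2 FPKM in fresh frozen 2, the lowest library, and 66.5 and 69.7 in RVC 1, the highest.

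Slc2a1 (ENSMUSG00000028645, chromosome 4, 118965908 to 118995180, plus strand) measured 64.3 and 58.6 FPKM in RVC 1 and 2, and 50.4 and 49.98 FPKM in fresh frozen 1 and 2, a mean of 55.8 ± 6.90 (SD, n = 4). In each library it lay just under Slc5a1, although the ranges of both genes overlapped. Its FPKM was divided mainly between a transcript of 3260 nt, with 44.4% to 52.1% of the gene, and one of 2241 nt, with 37.6% to 46.6%. GLUT1 is carried by many cell types, and in bulk tissue fewer cells of a type and less RNA per cell cannot be told apart. Blood is a part of bulk tissue, and the 6 erythroid genes, led by Hbb-bs, summed to 363 and 105 FPKM in RVC 1 and 2, and 363 and 66.4 FPKM in fresh frozen 1 and 2. The part of blood in the level of Slc2a1 was not tested. Of the 3506 exon bases of Slc2a1, 105 are shared with the lncRNA Gm12868 on the opposite strand, which measured 0.955 to 1.42 FPKM.

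Slc2a5 (ENSMUSG00000028976, chromosome 4, 150203740 to 150228626, plus strand) measured 1.83 and 2.81 FPKM in RVC 1 and 2, and 2.37 and 1.37 FPKM in fresh frozen 1 and 2. It was on in all 4 libraries, in the middle of the range of protein-coding genes (top 42.0% to 50.3%). On the scale of log2(FPKM + 1), Slc2a1 exceeded Slc2a5 by 4.21 ± 0.307 (SD, n = 4), with a lowest value of 3.93. The full-length transcript of 3158 nt took 99.97% of Slc2a5 in RVC 1 but 60.3% in RVC 2, where short transcripts of 594 and 799 nt made up the rest. That longest transcript alone measured between 1.149 and 1.868 FPKM.

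Slc2a2 (ENSMUSG00000027690, chromosome 3, 28752052 to 28785508, plus strand) was listed at 0 in RVC 1 and in fresh frozen 2, at 0.0250 FPKM in RVC 2 and at 0.0314 in fresh frozen 1. No lower confidence bound of its 3 transcripts exceeded 0, and the highest upper bound was 0.0955 FPKM. On the log2(FPKM + 1) scale Slc2a1 exceeded it by 5.80 ± 0.181 (SD, n = 4). With Slc2a2 at or near 0 that value was set by the level of Slc2a1 and by the pseudocount, and it was 8.94 with a pseudocount of 0.1. Of the 3 facilitated sugar carriers among the 10 genes, Slc2a1 was the one at a high level.

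**Figure D2:**
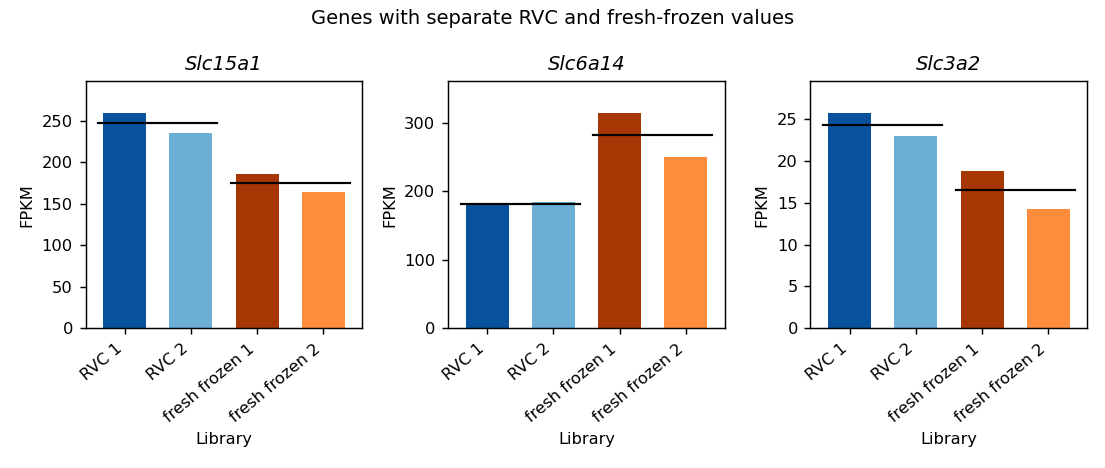
FPKM of Slc15a1, Slc6a14 and Slc3a2 in the 4 libraries, with the mean of each group of 2 as a line; each axis starts at 0. Slc15a1 and Slc3a2 are higher in both RVC libraries than in both fresh-frozen libraries, and Slc6a14 is lower in both.

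Peptide uptake was represented at a high level by Slc15a1 (ENSMUSG00000025557, chromosome 14, 121697033 to 121742664, minus strand). It measured 259 and 235 FPKM in RVC 1 and 2, and 186 and 164 FPKM in fresh frozen 1 and 2, a mean of 211 ± 43.6 (SD, n = 4). Both RVC values were above both fresh-frozen values. In every library the gene lay within the top 1.053% to 1.499% of protein-coding genes. A transcript of 3121 nt carried 97.9% to 99.1% of its FPKM, and the other, of 3229 nt, the rest.

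Among the amino acid transporters of the apical membrane, Slc6a14 was abundant and Slc6a19 was not. Slc6a14 (ENSMUSG00000031089, chromosome X, 21581135 to 21608594, plus strand) measured 179.97 and 184 FPKM in RVC 1 and 2, and 314 and 250.3 FPKM in fresh frozen 1 and 2, a mean of 232 ± 63.5 (SD, n = 4). Both fresh-frozen values were above both RVC values, the opposite order to Slc15a1. It has 1 transcript in the tables, of 3434 nt, and its confidence bounds in RVC 2 (181 to 187 FPKM) and fresh frozen 2 (247 to 253 FPKM) did not overlap. Those bounds cover the estimate within a library and not the spread between libraries.

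Slc6a19 (ENSMUSG00000021565, chromosome 13, 73827864 to 73852984, minus strand) measured 0.958 and 0.318 FPKM in RVC 1 and 2, and 0.296 and 0.671 FPKM in fresh frozen 1 and 2. It was off in all 4 libraries by the minimum of 1 FPKM and ranked in the lower part of the protein-coding genes (top 53.7% to 62.8%). Slc6a14 exceeded it on the log2(FPKM + 1) scale by 7.20 ± 0.571 (SD, n = 4), from 6.53 in RVC 1 to 7.92 in fresh frozen 1. The transcripts given to Slc6a19 differed from library to library: the transcript of 3936 nt took 81.2% and 0.403% in RVC 1 and 2, and 41.4% and 46.7% in fresh frozen 1 and 2. At this level single transcripts could not be compared. The protein needs a partner at the membrane, and of its partner genes the peptidase gene Anpep measured 1.56 to 2.28 FPKM and Cltrn was listed at 0 in all 4 libraries.

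The cystine transporter genes Slc3a1 and Slc7a9 were both low. Slc3a1 (ENSMUSG00000024131, chromosome 17, 85335804 to 85371664, plus strand) measured 1.28 and 0.760 FPKM in RVC 1 and 2, and 0.747 and 1.33 FPKM in fresh frozen 1 and 2. The confidence bounds of its single transcript reached from 0.523 to 0.997 FPKM in RVC 2 and from 0.502 to 0.992 in fresh frozen 1. In RVC 1 the bounds were 0.974 and 1.585 FPKM, and in fresh frozen 2 they were 1.048 and 1.611. Those of RVC 1 overlapped with those of RVC 2 and of fresh frozen 1. Of its 2271 exon bases, 601 (26.5%) are shared with exons of Prepl, which lies on the opposite strand and measured 12.6 to 14.3 FPKM. No strand setting is given in the sources used here, so reads of both genes over those bases cannot be told apart.

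Slc7a9 (ENSMUSG00000030492, chromosome 7, 35148221 to 35165461, plus strand), the light chain, measured 4.82 and 2.06 FPKM in RVC 1 and 2, and 2.07 and 2.79 FPKM in fresh frozen 1 and 2. A transcript of 1765 nt took 50.5% to 82.7% of it, and a short transcript of 370 nt took 24.9% in RVC 1 and next to nothing in RVC 2. On the log2(FPKM + 1) scale Slc7a9 exceeded its heavy chain by 0.916 ± 0.296 (SD, n = 4), with 0.701 in fresh frozen 2 as the lowest value. The size of this difference depended on the measure, at 0.492 for the most abundant transcript of each gene and 1.38 with a pseudocount of 0.1.

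Slc3a1, Slc7a9 and Slc6a19 had their higher values in the same libraries, RVC 1 and fresh frozen 2, and their lower values in RVC 2 and fresh frozen 1. Slc2a5 had the reverse order. This alignment runs across the groups of the study, was seen after the values were known and was not tested. How many of all genes share the order was not counted, so it is not read as a trait of these genes. RVC 1 and fresh frozen 2 also had the highest relative depth, though RVC 2 (79.8%) was close to RVC 1 (81.8%). The part of depth was not tested.

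Slc3a2 (ENSMUSG00000010095, chromosome 19, 8684246 to 8700733, minus strand), the heavy chain of the basolateral exchangers, measured 25.7 and 22.98 FPKM in RVC 1 and 2, and 18.8 and 14.2 FPKM in fresh frozen 1 and 2, a mean of 20.4 ± 5.01 (SD, n = 4). Both RVC values were above both fresh-frozen values. It exceeded the other heavy chain, Slc3a1, by 3.38 ± 0.465 on the log2(FPKM + 1) scale (SD, n = 4), from 2.71 in fresh frozen 2 to 3.77 in RVC 2. A transcript of 1819 nt carried 57.8% to 69.8% of Slc3a2, and one of 2813 nt, which starts further upstream, carried 15.4% to 25.3%. Of the light chains that pair with it, 5 of the 6 listed were analysed and 1 was not analysed here, so their total is not given. Slc7a7, the light chain for basic amino acid export, was the highest of the 5 at 5.62 to 7.94 FPKM. Slc7a8 measured 1.31 to 1.98 FPKM, and Slc7a6 measured 0.735 to 2.36 FPKM. Slc7a7 shares 232 of its 3315 exon bases with Oxa1l on the opposite strand.

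**Figure D3:**
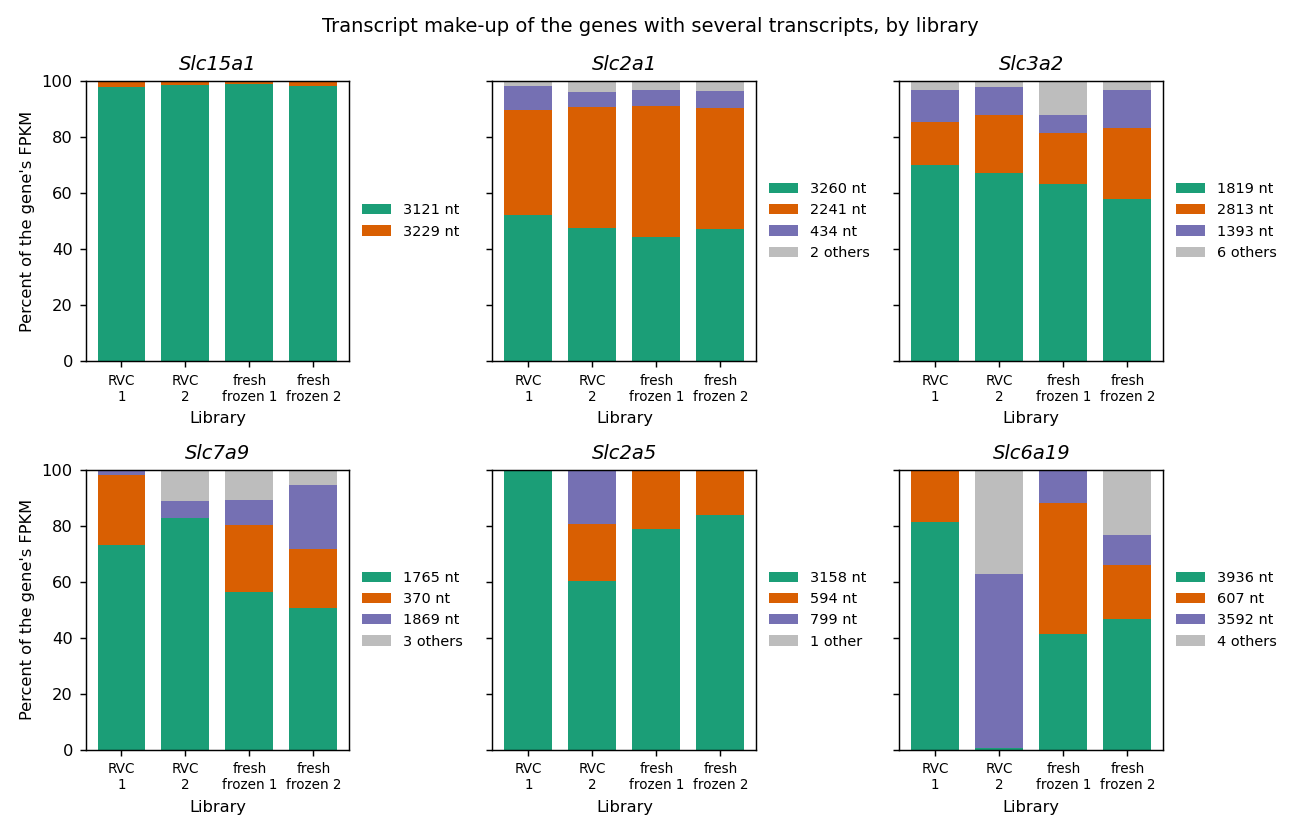
Percent of each gene's FPKM given to its transcripts in the 4 libraries, for 6 genes with several transcripts (Slc2a2, at or near 0, is left out); the 3 most abundant are named by length and the rest are grey. Slc15a1 rests on 1 transcript throughout, Slc2a1 and Slc3a2 are each divided mainly between the same few transcripts in all libraries, and the make-up of Slc6a19 differs from library to library.

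Other transporters of the same substrates were examined from lists covering 57 genes, of which 56 were in the tables and 25 were on in all 4 libraries. Of 16 other sugar transporter genes, 5 were on in every library and 9 in none. The highest were Slc50a1 at 12.5 to 14.1 FPKM, Slc2a13, a carrier of myo-inositol, at 7.32 to 8.44 FPKM, and the insulin-regulated glucose carrier gene Slc2a4 at 2.06 to 5.04 FPKM. Each of these was under Slc5a1 and Slc2a1 in every library. Of 4 other oligopeptide transporter genes, Slc15a4 measured 3.22 to 5.98 FPKM, Slc15a2 measured 0.621 to 4.68 FPKM and Slc15a3 stayed under 1 FPKM.

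Neutral and acidic amino acid transporters included the most abundant of these other genes, with 13 of 24 on in all 4 libraries. Slc36a1, a proton-coupled carrier of small amino acids, measured 109 and 84.4 FPKM in RVC 1 and 2, and 71.7 and 72.3 FPKM in fresh frozen 1 and 2. Slc38a6 measured 39.2 to 46.9 FPKM and Slc38a2, a sodium-coupled carrier of neutral amino acids, 25.7 to 26.6 FPKM. Only Slc6a14 and Slc15a1 exceeded Slc36a1 in every library among the 10 genes described and these 56. Of 4 cationic amino acid transporter genes, Slc7a4 measured 1.95 to 2.74 FPKM, Slc7a1 measured 1.80 to 2.37 FPKM and Slc7a2 0.257 FPKM or less.

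**Figure D4:**
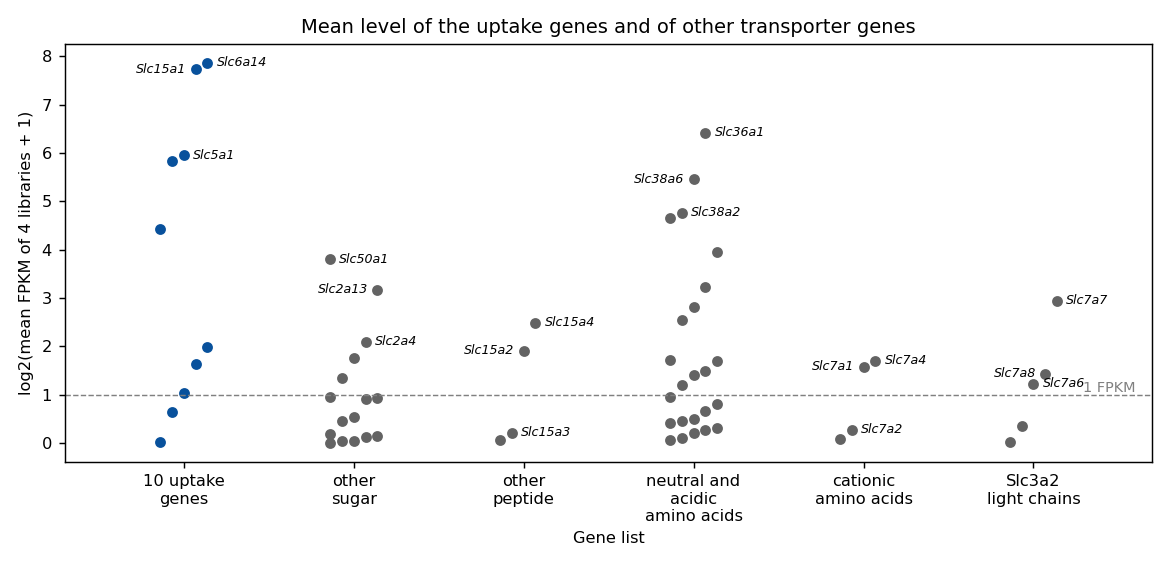
Mean level over 4 libraries, as log2(mean FPKM + 1), of the 10 uptake genes (blue) and of other transporter genes (grey) by list, with the 3 highest of each list named and 1 FPKM as a dashed line. Slc6a14 and Slc15a1 are the highest points, and Slc36a1 is the highest of the other lists.

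Transcription factors of the intestinal epithelium were present in these libraries. Of 9 listed, 7 were on in all 4 libraries, led by Hnf4a at 150.4 to 189 FPKM, Cdx1 at 58.1 to 61.4 FPKM and Gata6 at 9.45 to 10.8 FPKM. Gata4, a factor of the proximal small intestine, measured 0.0540 to 0.139 FPKM. It was also among the 11 ileal markers, where as a proximal factor it cannot tell ileum from colon. All 10 hypoxia response genes were on in all 4 libraries, with Ldha, Pgk1 and Egln3 highest at means of 623, 203 and 40.1 FPKM. Of 10 amino acid response genes 7 were on in all 4, with Atf4, Ddit3 and Asns highest at means of 37.3, 7.96 and 4.39 FPKM.

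RVC and fresh-frozen libraries were then compared over all genes with limma, on log2 of the scaled FPKM plus 1, with Benjamini-Hochberg adjustment over 13771 genes. The added 1 shrinks the fold change of a gene whose level is near 1 FPKM. None of the 10 genes passed an adjusted p of 0.05 in this fit. Of all genes tested 5, or 0.0363%, passed, with 0.0145% higher and 0.0218% lower in RVC. Slc6a19 and Slc2a2 had a mean under 1 FPKM and were not tested. Of the 8 genes tested, 4 had an unadjusted p under 0.05, where 18.4% of all genes did. Of the 8, 3 had such a p and were higher in RVC (9.38% of all genes), and 1 had it and was lower (8.99%). The values of RVC and fresh frozen did not overlap for 5 of the 8 (Slc15a1, Slc6a14, Slc3a2, Slc2a1 and Slc5a1), against 53.2% of all genes, so that share was near the background. Of the 8, 4 were higher in RVC without overlap, where 26.5% of all genes were, and 1 was lower without overlap, where 26.6% were. The median log2 fold change of the 8 was 0.255, and over all genes tested it was 0.00659.

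Slc6a14 had the lowest p of the 10 genes. Its mean was 182 ± 2.81 FPKM over RVC and 282 ± 45.1 FPKM over fresh frozen (SD, n = 2 each). The log2 fold change, RVC less fresh frozen, was -0.62 (SE 0.133), and the limma adjusted p was 0.129. For Slc15a1 the means were 247 ± 16.7 and 175 ± 15.8 FPKM in the same order (SD, n = 2 each), and the log2 fold change was 0.50 (SE 0.121), at a limma adjusted p of 0.138. Slc3a2 measured 24.3 ± 1.90 and 16.5 ± 3.27 FPKM (SD, n = 2 each), with a log2 fold change of 0.55 (SE 0.146) and a limma adjusted p of 0.154. Slc2a1, at 61.4 ± 4.04 and 50.2 ± 0.285 FPKM (SD, n = 2 each), gave 0.29 (SE 0.107) and a limma adjusted p of 0.228.

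The remaining tested genes gave limma adjusted p-values from 0.405 to 0.987. Slc5a1 had a log2 fold change of 0.18 (SE 0.111), Slc7a9 of 0.31 (SE 0.293), Slc2a5 of 0.22 (SE 0.22) and Slc3a1 of -0.0089 (SE 0.214). Without RVC 1 that of Slc7a9 was -0.16, without RVC 2 that of Slc3a1 was 0.18, and without fresh frozen 2 that of Slc2a5 was -0.025. With 2 libraries on each side, 0.333 is the smallest two-sided p of an exact permutation test, and none was run.

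The opposite order of Slc15a1 and Slc6a14 also showed as a difference within each library, chosen after the values were seen. Slc6a14 less Slc15a1, on the log2(FPKM + 1) scale, was -0.52 and -0.35 in RVC 1 and 2, and 0.75 and 0.61 in fresh frozen 1 and 2. Slc15a1 was thus the most abundant of the 10 genes in both RVC libraries, and Slc6a14 was the most abundant in both fresh-frozen libraries. This difference was not tested.

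Summed markers of several other cell types also stood apart between the groups. No marker gene passed the limma adjusted threshold, with an unadjusted p under 0.05 for 7 of 7 smooth muscle, 7 of 8 endothelial, 4 of 6 macrophage, 3 of 4 tested plasma cell and 5 of 6 proliferation genes. Over all genes tested, 18.4% had an unadjusted p under 0.05 by limma. The 7 smooth muscle genes, led by Actg2, summed to 1106 and 1649 FPKM in RVC and to 679 and 733 in fresh frozen. The 8 endothelial genes, led by Pecam1, summed to 26.0 and 24.5 against 13.3 and 15.8 FPKM, the 6 plasma cell genes, led by Igkc, to 921 and 819 against 311 and 527, and the 6 macrophage genes, led by C1qa, to 53.1 and 53.2 against 39.7 and 30.6. The 6 genes of proliferating cells, led by Mki67, summed to 23.1 and 25.8 FPKM in RVC and to 36.2 and 38.3 in fresh frozen, the same order as Slc6a14. Of these 6 genes 5 were lower in RVC and 1 was higher. Over all genes tested, 26.6% were lower in RVC without overlap, so that order is common. The 9 epithelial markers summed to 6857 and 6675 FPKM in RVC and to 7416 and 5544 in fresh frozen, and so overlapped. The 12 distal colon markers summed to 6926 and 5988 FPKM in RVC and to 5740 and 4608 in fresh frozen, the same order as Slc15a1 and Slc3a2. Car4 alone made up 2373 and 1948 against 1626 and 1265 of these, and the order of the sum depended on Car4. Over all genes tested, 26.5% were higher in RVC without overlap, so that order is common too. The 11 ileal enterocyte markers summed to 196 and 205 against 165 and 169 FPKM. Mep1a alone made up 174 and 184 against 141 and 119 of these, so the order of the sum was that of Mep1a. Of the 4 ileal markers tested, 2 were higher and 2 lower in RVC, at a median log2 fold change of -0.095. At an unadjusted p under 0.05, 1 gene of each of these lists was higher in RVC, Car4 at a log2 fold change of 0.59 and Mep1a at 0.47. The 5 T cell genes, led by Cd3g, summed to 1.74 to 3.16 FPKM and the 6 genes of enteric neurons and glia in the tables, led by Uchl1, to 15.5 to 24.5 FPKM, and both overlapped between groups. The part of cell composition in the values of the 10 genes was not tested.

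Scaling the libraries on the 9 epithelial markers was an alternative added after the data were seen. It moved the median log2 fold change of all genes to -0.10. Slc6a14 then had a log2 fold change of -0.75 (SE 0.162) at a limma adjusted p of 0.0133, in a fit that called 147 of 13848 genes, or 1.06%, with 0.592% lower in RVC. The move from -0.62 was in the direction of the shift of all genes. The ratio of the log2 fold change of Slc6a14 to its SE was nearly the same in both fits. Its unadjusted limma p was 0.00225 with scaling on all genes and 7.4e-05 here, so the lower p did not come from a larger ratio. The scaling rested mainly on fresh frozen 2, whose factor was 0.8396, where the factors of the other libraries lay just above 1. The other 7 tested genes did not pass there, and Slc15a1 and Slc3a2 had an unadjusted p under 0.05. Slc15a1 had a value of 0.37 (SE 0.163, limma adjusted p 0.316) and Slc3a2 one of 0.42 (SE 0.183, limma adjusted p 0.307). The values of Slc5a1 and Slc2a1 were 0.049 and 0.16.

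**Figure D5:**
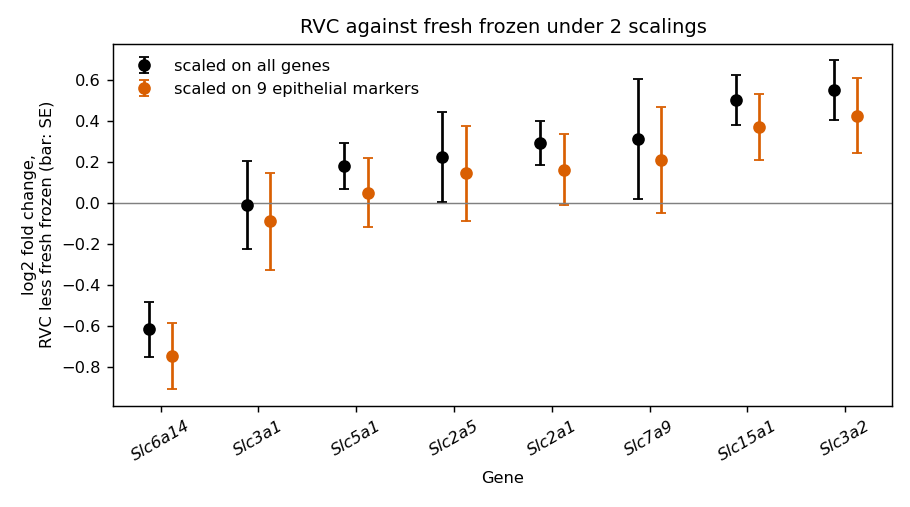
Log2 fold change, RVC less fresh frozen, of the 8 tested genes, with its standard error, for libraries scaled on all genes (black) and on 9 epithelial markers (orange). Slc6a14 lies at -0.62 and -0.75, and Slc15a1 and Slc3a2 lie above 0 under both.

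Of the other transporter and partner genes 27 were tested, and 0 passed the limma adjusted threshold. An unadjusted limma p under 0.05 was seen for 4 of them, 2 in each direction, where 18.4% of all genes tested had one. The median log2 fold change of the 27 was -0.036. The largest values were those of Slc2a4 at 0.69 (SE 0.176, limma adjusted p 0.146), Slc6a20b at -0.48 (SE 0.135, limma adjusted p 0.159) and Slc36a1 at 0.42 (SE 0.142, limma adjusted p 0.206). All 3 tested light chains of Slc3a2 had negative values, at -0.34 (SE 0.125) for Slc7a7, -0.28 (SE 0.304) for Slc7a6 and -0.067 (SE 0.176) for Slc7a8. Those of Slc7a6 and Slc7a8 were smaller than their SE, so their signs are uncertain. Slc3a2 itself had a positive value, and none of the 4 passed. Slc2a4 and the smooth muscle markers were each higher in both RVC libraries, and the part of muscle in Slc2a4 was not tested. By limma, 0 of 7 intestinal transcription factors, 0 of 10 hypoxia response genes and 0 of 7 amino acid response genes passed. In the same order 1, 2 and 0 had an unadjusted p under 0.05, beside 18.4% of all genes tested. The median log2 fold changes of these lists were 0.054, 0.15 and 0.20.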

How the data were processed

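RNA was extracted from tissue in TRIzol, ribosomal RNA was depleted, and KAPA HyperPrep libraries were read as 150-bp pairs, per the labels' protocols. The authors aligned reads with TopHat2 2.1.1 to GRCm39 and deposited FPKM per transcript with confidence bounds from Cufflinks 2.2.1, both at default settings, per the submitters' processing notes and the design text. Coverage, deposited by the authors as a signal of reads per base, was used only for relative depth. The annotation release and strand setting are not given in the sources used here. As FPKM are no counts, no count test was run.

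Gene FPKM was the sum over transcripts. Libraries were scaled by median ratio (factors 0.992 to 1.01), and log2(scaled FPKM + 1) was fitted with limma 3.58.1 in R 4.3.3 (trend, two-sided, 2 against 2). Genes needed a mean of 1 FPKM, a transcript of 300 nt and OK status throughout. Adjustment was by Benjamini-Hochberg. The fit was tested on simulated data. A symbol with several gene IDs kept the ID with the highest mean. Exon overlaps and strands came from GENCODE vM39 and promoter windows from the GRCm39 genome. The genes and lists were chosen with earlier results of these data known. Named genes were all 10 genes, the 3 most abundant of each pathway list and the most abundant of each marker list. Slc6a20b, Prepl, Oxa1l, Gm12868, Gata4, Apoa4, Fgf15, Fabp2, Fabp6 and Slc10a2 were named after their values were seen. With 4 libraries there are too few to name genes of like pattern. Some listed items are not reported here. Alternatives covered pseudocount, scaling, filters, trend, block, transcript summary and each library left out. Python tools were pandas 2.3.3 and matplotlib 3.10.9.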

Additional observations from a re-analysis of the deposited data

How the results depend on the processing

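The number of genes called between RVC and fresh frozen, 5 of 13771, depended on the fit. It was 0 without a filter on low values, 0 without a mean-variance trend and 0 in sums over transcripts of at least 300 nt (with 3531, 2461 and 2577 genes at an unadjusted p under 0.05, against 2530, all by limma). It was 2 at a mean of at least 5 FPKM, 2 with the most abundant transcript, and 147 with scaling on the epithelial markers. Without fresh frozen 1 it was 40, without RVC 1 it was 29, and without fresh frozen 2 it was 22; over the libraries left out it ran from 8 to 40. A replicate block on sample number gave 112 calls, none of them among the 10 genes. Deviations from the group means correlated at -0.134 between the libraries numbered 1. With 2 libraries in each group this correlation cannot decide whether libraries were paired by number. A replicate block with crossed numbers, added after the data were seen, gave 12 calls. The epithelial scaling, also added after the data were seen, was the only alternative under which one of the 10 genes, Slc6a14, passed, at -0.75; over its 15 alternatives the limma adjusted p of Slc6a14 ran from 0.0133 to 0.429, and that of Slc15a1 from 0.116 to 0.518. Signs reversed for Slc2a5 without fresh frozen 2 (-0.025, with 0.46 as the highest value with a library left out), for Slc3a1 without RVC 2 (0.18, lowest -0.22), and for Slc7a9 without RVC 1 (-0.16, highest 0.78). The mean of Slc6a14 less Slc15a1 was -0.090 without fresh frozen 1, -0.043 without fresh frozen 2, and 0.33 at its highest, without RVC 1. The difference was negative in both RVC libraries and positive in both fresh-frozen ones. This mean therefore moves with the number of libraries kept from each group, and its sign is no measure of robustness. A group left with 1 library was assumed to vary like the other. At a minimum of 5 FPKM the count of genes on was 5 in RVC 1 and 5 in fresh frozen 2. On log2 with a pseudocount of 0.1, Slc3a2 less Slc3a1 was 4.19, Slc7a9 less Slc3a1 1.38, Slc2a1 less Slc2a2 8.94, Slc2a1 less Slc2a5 4.71 and Slc6a14 less Slc6a19 8.54; with the most abundant transcript the first 4 were 2.79, 0.492, 4.77 and 3.39, all of them positive. Slc2a1 and Slc3a2 measured 26.8 and 13.4 FPKM by their most abundant transcript. The causes of these differences were not tested. The files give no read totals, so no limit of detection was set for genes at or near 0.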
